A study of Mus musculus with 6 samples.

Results

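The mitochondrial ribosomal proteins are encoded in the nucleus and, with the ribosomal RNAs of mitochondrial DNA, form the ribosome that translates the respiratory chain subunits made inside the mitochondrion. Its members were taken here as the genes with a single annotated symbol beginning with Mrpl or Mrps and a number, and each gene was read by the probe set with the highest mean level. This gave 76 of the 18193 genes measured, of which 49 encode proteins of the large subunit and 26 proteins of the small one. The remaining member, Mrps36, carries a ribosomal name, but its product is known as a subunit of the 2-oxoglutarate dehydrogenase complex of the citric acid cycle and is also called Kgd4. Mrps18a and Mrps30 are named for the small subunit but sit in the large one, and they were counted there.

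Gene expression was measured on Affymetrix arrays, 1 per mouse, in CD71+Ter119+ cells sorted from the bone marrow of female mice aged 6 weeks. Cells that carry both CD71, through which transferrin iron is taken up, and the red cell antigen Ter119 are immature red cells. The 3 control mice were Bcl11a +/+. The 3 knockout mice were Bcl11a fl/fl EpoR-Cre+, in which Cre driven from the erythropoietin receptor gene removes the floxed part of Bcl11a in the red cell lineage; Bcl11a encodes a repressor of embryonic globin genes. Cre was present in the knockout mice alone, and what it or the changed EpoR allele does cannot be told apart from the loss of Bcl11a. The comparison asked which transcripts differ once Bcl11a is lost in red cell precursors. The question matters for this family because red cell precursors depend on their mitochondria for heme synthesis and later discard both mitochondria and ribosomes.

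The arrays had median intensities of 67.5 to 70.9. The brightest probe set of Bcl11a read 1475, 1553 and 1450 in the controls and 1286, 1419 and 1190 in the knockouts, a log2 change of -0.20 (limma, adjusted p = 0.502). Whether its probes lie in the deleted part was not analysed here, so it checks no label. Hbb-y, an embryonic globin that Bcl11a represses, had a control mean of 73.3 and a knockout mean of 19621. Of 9 erythroid markers measured, the lowest mean was 1082 (Epor) and the highest 24414 (Alas2). The erythroid markers summed to 80966 to 100277 in the controls and 105917 to 118216 in the knockouts. Neutrophil genes were bright as well, from a mean of 4318 (Elane) to one of 39328 (S100a8). The 10 neutrophil markers summed to 211975 to 214367 in the controls and 195991 to 205210 in the knockouts. In bulk cells such as these, fewer cells of a type and less RNA per cell cannot be told apart.

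As background to the regulation of the family, promoters of mitochondrial ribosomal protein genes are known for sites of the factors NRF1, ETS proteins such as GABPA, and YY1. RefSeq promoter windows (build GRCm38.p6, 250 bases before to 50 after a start) matched 67 of the 76 members, with 73 windows. Each was searched on both strands for the letters CGCATGCGC as an NRF1 motif, for CCGGAAG as the motif of ETS proteins, and for AAGATGGC as that of YY1. The erythroid GATA factors were represented by the letters AGATAA. The motif known for BCL11A itself was searched as TGACCA. The ETS motif stood in 25 of the 73 windows (34.2%), against 8.86% of all 32851 windows and 13% of the 18109 windows of genes measured on the arrays. The YY1 motif stood in 16.4% of the member windows, 2.75% of all and 3.38% of those of measured genes, and the NRF1 motif in 9.59%, 1.75% and 2.69%. Together these 3 motifs occurred in 37 of the 73 windows (50.7%), against 12.5% of all windows and 17.7% of those of measured genes. The GATA motif was in 15.1% of the member windows, 11.2% of all and 8.09% of those of measured genes, and the BCL11A motif in 9.59%, 13.6% and 12.1%. A match of letters is a description and not a bound site.

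The bases before the start are shown for Mrps36 and Mrpl48, the members with the smallest p-values whose windows held a motif, and for Mrps18a and Mrpl32, chosen after their values and motifs were seen because they hold several. Capitals mark matches, and the 5′ end is on the left. The Mrps36 window has an AGATAA beginning at position -141 from the start and none of the other motifs. Of the 4 windows of Mrpl48, only the one shown held a motif, an opposite-strand CCGGAAG. Mrps18a has CCGGAAG beginning at position -26 and TGACCA on each strand, and its window also holds AAGATGGC at position 12 after the start, outside the bases shown. Mrpl32 has overlapping CGCATGCGC matches on both strands, at -86 and -87, a further one at -23 and an opposite-strand AAGATGGC.
Mrps36, chr13:100744660-100744909, minus strand: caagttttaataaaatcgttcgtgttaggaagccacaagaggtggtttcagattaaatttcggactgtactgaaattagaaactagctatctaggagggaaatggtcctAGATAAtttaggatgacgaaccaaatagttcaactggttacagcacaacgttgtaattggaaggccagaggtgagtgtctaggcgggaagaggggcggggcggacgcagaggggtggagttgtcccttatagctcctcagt
Mrpl48, chr7:100583131-100583380, minus strand: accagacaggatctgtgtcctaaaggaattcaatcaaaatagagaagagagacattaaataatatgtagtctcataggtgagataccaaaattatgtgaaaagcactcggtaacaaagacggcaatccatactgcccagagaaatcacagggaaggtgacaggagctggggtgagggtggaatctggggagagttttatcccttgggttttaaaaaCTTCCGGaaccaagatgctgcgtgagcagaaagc
Mrps18a, chr17:46110754-46111003, plus strand: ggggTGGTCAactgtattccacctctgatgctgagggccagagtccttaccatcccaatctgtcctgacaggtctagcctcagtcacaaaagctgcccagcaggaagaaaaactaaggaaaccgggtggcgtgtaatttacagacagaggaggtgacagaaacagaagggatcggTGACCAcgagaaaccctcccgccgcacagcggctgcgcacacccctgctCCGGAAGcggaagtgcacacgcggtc
Mrpl32, chr13:14613038-14613287, minus strand: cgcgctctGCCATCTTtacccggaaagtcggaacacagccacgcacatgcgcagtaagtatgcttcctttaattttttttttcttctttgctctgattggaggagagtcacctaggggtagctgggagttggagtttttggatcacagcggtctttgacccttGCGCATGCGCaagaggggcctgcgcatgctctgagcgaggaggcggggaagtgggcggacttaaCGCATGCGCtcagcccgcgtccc

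No mitochondrial ribosomal protein gene passed the test, and nearly all differences were small. With limma p-values adjusted by Benjamini and Hochberg's method across the 45037 probe sets, and 0.05 as the threshold, 0 of the 76 members were called, against 0.209% of all genes called higher and 0.0055% called lower in the knockout. At an unadjusted p under 0.05, 1 member was higher and 3 were lower, where 8.18% of all genes were higher and 4.53% lower at that p, so neither count exceeded the background. The family leaned slightly downward in the knockout: 57 members had a log2 change below 0 and 19 above, with a median of -0.08 beside a median of 0 over all genes and 50.2% of all genes below 0. In 18 members (23.7%) all knockout mice lay below all controls, against 9.23% of all genes, and in 5 members (6.58%) they all lay above, against 12.3%. All 76 members were brighter than the median probe set, and among the 10829 genes that were, these shares were 12.3% for lower and 17% for higher. Levels are compared only within a probe set, since probe sets differ in brightness for the same RNA.

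**Figure D1:**
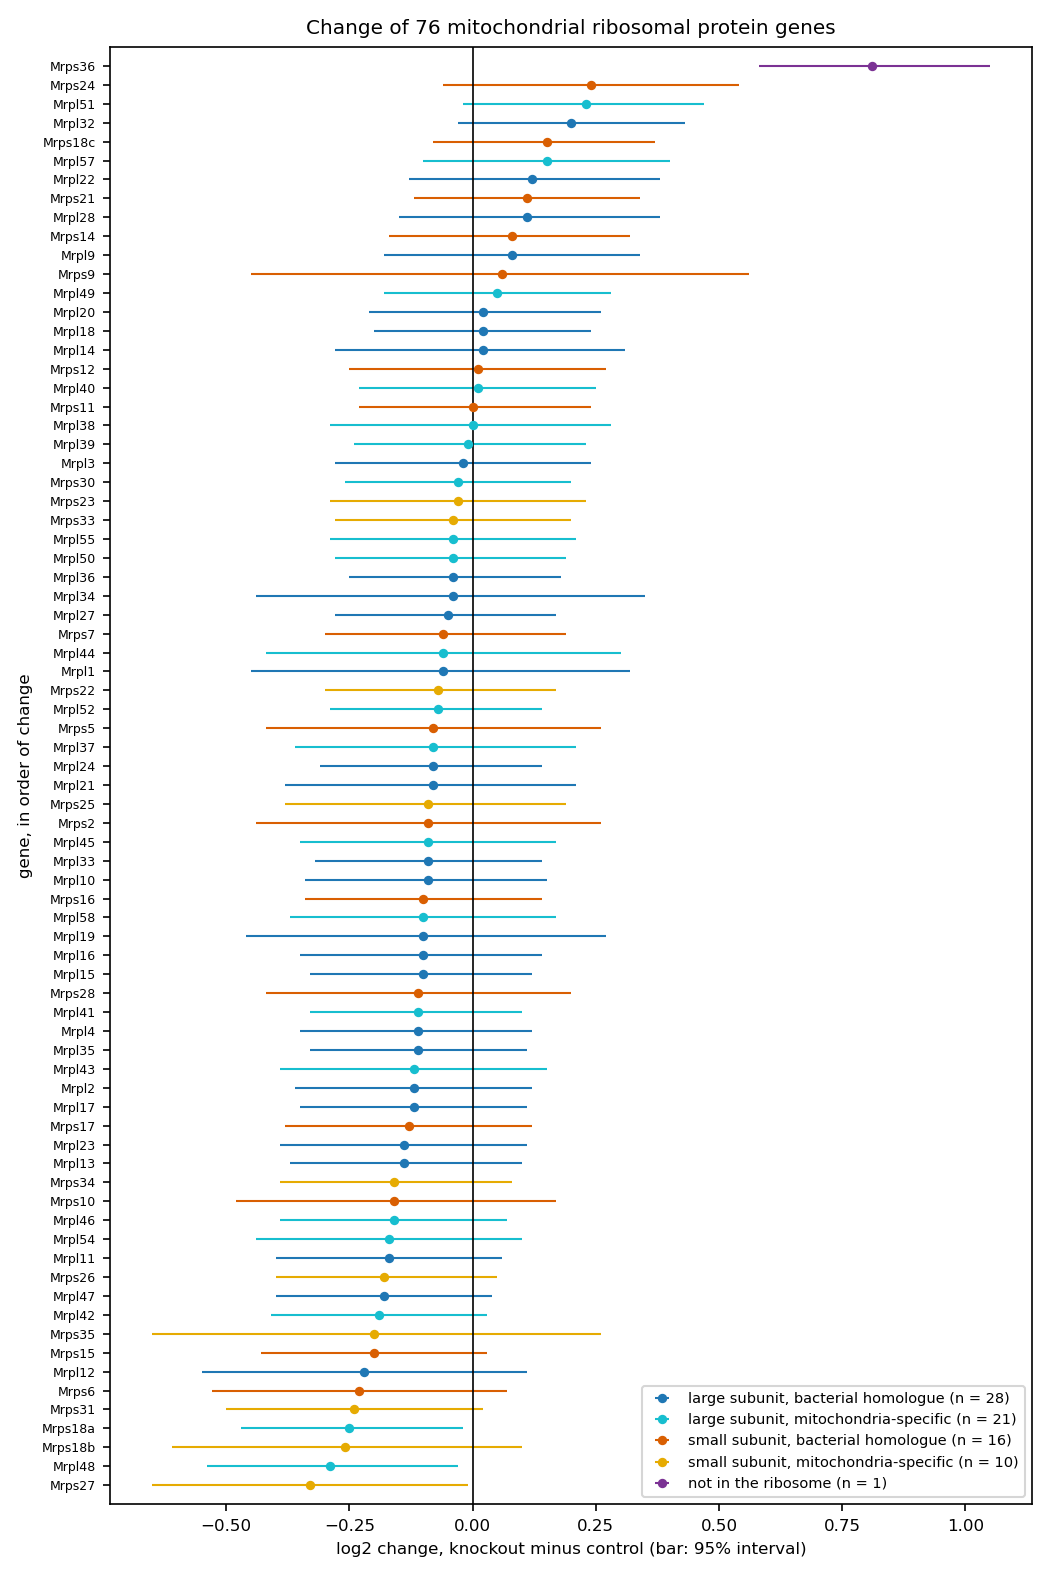
Log2 change (knockout minus control, x axis) of each of the 76 genes (y axis), with its 95% interval from the fit, coloured by place in the ribosome. Mrps36 stands alone at 0.81, and the 75 ribosomal genes lie between -0.33 and 0.24.

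The estimates were tight enough to bound most changes. The median standard error of a member was 0.10 on the log2 scale, against 0.15 over all genes, and the 95% interval lay wholly between -0.5 and 0.5 (a 1.41-fold change) in 66 of the 76. Only Mrps36 had an estimate of at least 0.5 in size, as had 6.49% of all genes. The interval excluded 0 for Mrps36, Mrps27, Mrpl48 and Mrps18a.

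The one member that stood apart was not a ribosomal protein. Mrps36 read 762, 805 and 824 in the control mice, while the knockout mice read 1374, 1371 and 1489. Every knockout value was far above every control value, and the spread within each group was small (797 ± 31.7 and 1411 ± 67.4, SD, n = 3). The ratio of the means was 1.77 and the log2 change 0.81 ± 0.10 (SE, 95% interval 0.58 to 1.05), just short of the threshold (limma, adjusted p = 0.0614). With the variances moderated along an intensity trend and robustly, the adjusted p was 9.30e-05, and Mrps36 was then the 1 member called among the 76, where 3.61% of all genes were called higher and 0.605% lower. It also passed with a pseudocount of 64 (adjusted p = 0.00456) and among the brighter probe sets alone (adjusted p = 0.00453). The block on the mouse number gave an adjusted p of 0.431, and leaving out 1 mouse gave 0.154 to 0.277.

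The other subunits of 2-oxoglutarate dehydrogenase, looked up after the value of Mrps36 was seen, did not share its size of difference. Ogdh, the decarboxylating subunit, read 1448, 1163 and 1324 in the controls and 1352, 1431 and 1695 in the knockouts, a log2 change of 0.18 (adjusted p = 0.638). Dlst, the succinyl-transferring subunit, read 853, 803 and 796 and then 600, 659 and 707, with every knockout value below the controls (log2 change -0.31, adjusted p = 0.325). Dld, the dihydrolipoamide dehydrogenase shared with other complexes, read 632, 754 and 721 and then 800, 849 and 847, with every knockout value above (log2 change 0.24, adjusted p = 0.427). At their brightest probe sets the 3 estimates thus differed in sign, and none passed. The Ogdh groups overlapped, with a 95% interval of -0.15 to 0.51, so its direction is not settled. Further probe sets of these genes were not looked at.

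Genes next to Mrps36 in the RefSeq order were also looked up afterwards. Of the 5 protein-coding genes on each side, 7 had a probe set of their own, and their log2 changes lay between -0.22 and 0.35. On the nearest sides, Cdk7, a kinase of transcription and the cell cycle, had group means of 605 and 609. Cenph, a kinetochore protein, had 361 ± 42.2 and 452 ± 48.9 and a log2 change of 0.31 (adjusted p = 0.418). Its groups barely missed overlap, at 398 in control mouse 2 and 400 in knockout mouse 1. Pik3r1 and Rad17 were also higher without overlap (log2 changes 0.35 and 0.19, limma, adjusted p = 0.387 and 0.495). Cenph, Pik3r1 and Rad17 are a larger share of the 7 than the 12.3% of all genes, which was not tested in so few. The other neighbours overlapped between groups. None of the 7 had a difference near that of Mrps36.

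**Figure D2:**
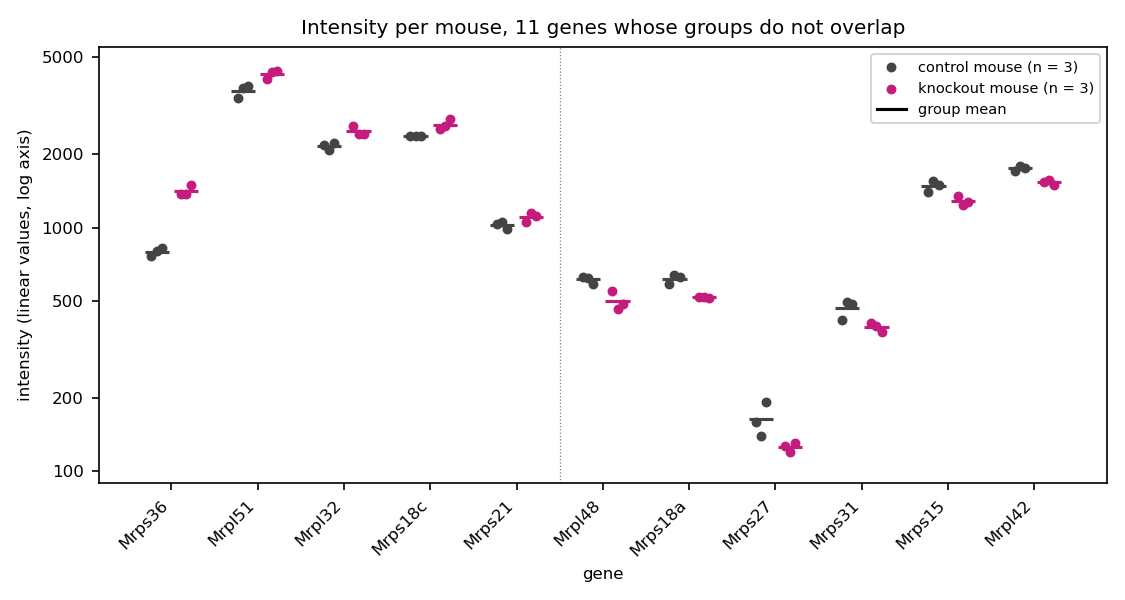
Intensity in each mouse (y axis, log scale) for the 5 members whose knockout values all lay above the controls (left of the dotted line) and the 6 with the smallest p of the 18 whose knockout values all lay below; bars are group means. Only the gap for Mrps36 is much wider than the spread between mice.

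In the large subunit, 38 of 49 genes had a change below 0, and the median was -0.08. The subunit catalyses peptide bond formation, and its proteins fall into those with bacterial counterparts and those found in mitochondria only. Of the 28 with bacterial counterparts, 21 were below 0 (median -0.09, range -0.22 to 0.20), 6 (21.4%) had no overlap downward and 1 (3.57%) upward. Of the 21 mitochondria-specific ones, 17 were below 0 (median -0.07, range -0.29 to 0.23), 6 (28.6%) had no overlap downward and 1 (4.76%) upward. Over all genes these shares were 9.23% downward and 12.3% upward. Mrps18a counts as mitochondria-specific here, since it has a place of its own in the mitochondrial ribosome.

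Among the large subunit genes, Mrpl48, a protein of the central protuberance, read 628, 621 and 589 in the controls and 550, 465 and 486 in the knockouts. The groups did not overlap, and the log2 change was -0.29 ± 0.11 (adjusted p = 0.359). Its other probe sets did not bear this out as a whole: one had a change of -0.18 and the dimmest, at group means of 138 and 188, one of 0.43, and the mean over its probe sets gave -0.01. Mrps18a read 585, 638 and 625 and then 517, 519 and 514, so that the knockouts were nearly identical and all below the controls (log2 change -0.25 ± 0.09, adjusted p = 0.365). Mrpl42, a mitochondria-specific protein, read 1701, 1788 and 1755 and then 1541, 1567 and 1493, again without overlap (log2 change -0.19 ± 0.09, adjusted p = 0.469). Mrpl47, Mrpl46, Mrpl41, Mrpl35, Mrpl17, Mrpl15, Mrpl13, Mrpl11 and Mrpl52 were likewise lower without overlap, with log2 changes between -0.18 and -0.07.

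The large subunit genes that stood higher were few. Mrpl51, a mitochondria-specific protein, read 3394, 3729 and 3790 in the controls and 4047, 4339 and 4387 in the knockouts. The groups did not overlap, with a log2 change of 0.23 ± 0.10 (adjusted p = 0.427). Its dimmer probe sets had changes of 0.03 and -0.17, and its change was 0.10 after quantile normalization and 0.03 as the mean over probe sets. Mrpl32, whose precursor is known to be cut by the m-AAA protease before it joins the ribosome, read 2180, 2070 and 2215 and then 2599, 2421 and 2411 (log2 change 0.20 ± 0.10, adjusted p = 0.458, and 0.12 after quantile normalization). No other large subunit gene was higher in the knockouts without overlap. Mrpl57 and Mrpl33, which with Mrpl51 had the highest intensities of the family, overlapped between groups: Mrpl57 had means of 2917 ± 148 and 3243 ± 232, and Mrpl33 means of 2921 ± 77.3 and 2746 ± 120.

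Other large subunit proteins with known roles overlapped between groups. Mrpl12, a protein of the stalk that recruits translation factors, read 1783, 1519 and 1522 in the controls and 1281, 1261 and 1606 in the knockouts, so that 1 knockout mouse lay among the controls (log2 change -0.22 ± 0.14, 95% interval -0.55 to 0.11, adjusted p = 0.565). Mrpl10, which anchors the stalk, had means of 740 ± 41.7 and 693 ± 37.9. Mrpl45, which tethers the ribosome to the inner membrane, had means of 654 ± 55 and 611 ± 26.4. Mrpl58, a peptidyl-tRNA hydrolase that became part of the ribosome, had means of 951 ± 34.9 and 890 ± 88.3. In each of these the groups overlapped. Mrpl37 and Mrpl38, 2 of the 3 dimmest members, had means of 224 and 211 and of 167 and 166.

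In the small subunit, which decodes the messenger RNA, 19 of 26 genes had a change below 0, and the median was -0.09. At their brightest probe sets the 10 mitochondria-specific proteins were all below 0 (median -0.17, range -0.33 to -0.03). Of these, 4 (40%) had no overlap, against 9.23% of all genes. A further probe set each of Mrps25, Mrps26 and Mrps31 had a change of 0.53, 0.12 and 0.11, and the remaining further ones were below 0. These 3 probe sets were dim. Their control and knockout means were 48.9 and 77.6 for Mrps25, 13.5 and 18.7 for Mrps26, and 15.5 and 18.1 for Mrps31. The 16 with bacterial counterparts were divided, with 9 below and 7 above (median -0.07, range -0.23 to 0.24). In each direction 2 of them (12.5%) had no overlap, against 9.23% of all genes lower and 12.3% higher. The difference between these classes was not tested, and the classes are small.

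Mrps27, a pentatricopeptide repeat protein of the small subunit and the dimmest member, read 159, 140 and 193 in the controls and 127, 120 and 131 in the knockouts. Its groups did not overlap, and its log2 change of -0.33 ± 0.13 was the lowest of the family (adjusted p = 0.390), though it was -0.22 without control mouse 3. Mrps31, a mitochondria-specific protein, read 419, 494 and 484 and then 407, 393 and 374 (log2 change -0.24 ± 0.11, adjusted p = 0.435). Mrps15, which has a bacterial counterpart, read 1403, 1546 and 1493 and then 1341, 1242 and 1278 (log2 change -0.20 ± 0.10, adjusted p = 0.468). As means over probe sets, the changes of Mrps31 and Mrps15 were -0.07 and -0.12. These means take in a dim probe set of each gene, at group means of 15.5 and 18.1 for Mrps31 and 35.2 and 38 for Mrps15. Mrps26, Mrps34 and Mrps17 were lower without overlap as well, by -0.18, -0.16 and -0.13 on the log2 scale.

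Mrps18a, Mrps18b and Mrps18c descend from the same bacterial protein and sit at different places of the ribosome, and their differences had different signs. Mrps18c, in the small subunit at the bacterial position, read 2370, 2384 and 2380 in the controls and 2524, 2614 and 2776 in the knockouts, without overlap upward (log2 change 0.15 ± 0.09, adjusted p = 0.570, and 0.05 after quantile normalization). Mrps18b, at a mitochondria-specific place of the small subunit, read 247, 332 and 257 and then 213, 257 and 218, with overlap (log2 change -0.26 ± 0.15, adjusted p = 0.535, and -0.13 without control mouse 2). Mrps18a, given above, was lower without overlap. None of the 3 passed, and the differences among them were not tested.

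Of the other small subunit genes above 0, Mrps21 read 1037, 1055 and 987 in the controls and 1058, 1148 and 1114 in the knockouts, with the highest control almost level with the lowest knockout (log2 change 0.11 ± 0.09, and 0.03 after quantile normalization). Mrps24 read 983, 1252 and 1144 and then 1405, 1349 and 1234, with overlap (log2 change 0.24 ± 0.13, adjusted p = 0.496). Mrps12, near the decoding centre, had means of 758 and 762, and Mrps22 and Mrps16, whose loss is known to cause disease of mitochondrial translation, had means of 789 and 751 and of 1039 and 970. These groups overlapped.

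The downward lean of the family rested in part on which control mice it was compared with. Taking for each array the median deviation of the members from their own means, the controls stood at -0.02, 0.08 and 0.07 on the log2 scale and the knockouts at -0.04, -0.03 and -0.04. Control mouse 1 thus lay close to the knockouts. It was the lowest control in 56 of the 76 members, and in 35.4% of all genes. Without it the median change of the family was -0.12 with 60 members below 0, and without control mouse 2 it was -0.05 with 50 below. The same deviations of the 9 erythroid markers were -0.05, -0.46 and -0.18 in the controls and 0.10, 0.25 and 0.36 in the knockouts. Of the 9, 7 (77.8%) were higher in the knockout without overlap, against 12.3% of all genes. Control mouse 2, the lowest for erythroid markers, was by this median the highest for the mitochondrial ribosomal proteins, at 0.08 against 0.07 for control mouse 3. By summed intensity of the members, control mouse 3 was the highest (81135, against 80534 for control mouse 2). By that sum control mouse 1 (76643) lay below all knockouts (77918 to 78572).

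Markers of other cell types are given beside these values. The 10 neutrophil markers had a median change of -0.09, with 9 below 0 and 6 (60%) lower without overlap, against 9.23% of all genes. The 7 B cell markers summed to 12869 to 14765 in the controls and 9051 to 12449 in the knockouts, with all 7 below 0 and Igll1 and Vpreb1 lower without overlap. The 5 basophil and mast cell markers summed to 6191 to 6552 and to 4019 to 5678, and all 5 were below 0. The 8 macrophage, 6 T and NK cell and 6 megakaryocyte markers had medians of 0.04, 0.16 and 0.22. No marker was listed at 0; the lowest means in each list ran from 49.9 for Gp5 to 4318 for Elane. None of these markers passed the test, and the part of cell makeup in the lean of the family was not tested.

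**Figure D3:**
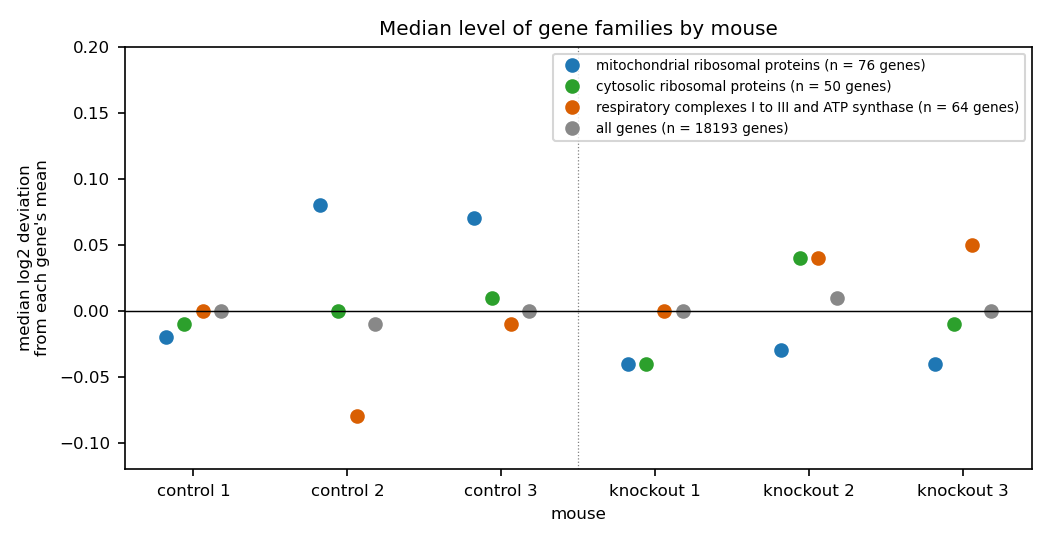
Median log2 deviation of 4 gene sets from each gene's mean over the 6 arrays (y axis) for each mouse (x axis). The mitochondrial ribosomal proteins stand at 0.08 and 0.07 in control mice 2 and 3 and between -0.04 and -0.02 in the other 4 mice.

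Several genes were read by more than 1 probe set, and these often disagreed in sign. Of the 42 members with several probe sets, 12 had all below 0, 4 all above and 26 a mixture. The 80 probe sets that did not stand for their gene were mostly dimmer, and 47 had the sign of the brighter one. Of the 80, 8 were higher without overlap and 7 lower, where 12.3% and 9.23% of all genes were. Among the higher ones was a probe set of Mrpl11 with values of 166, 115 and 173 in the controls and 215, 215 and 201 in the knockouts (log2 change 0.45), while the 3 others of that gene had changes of -0.17, -0.12 and -0.10. Mrpl17 had a change of -0.12 in its bright probe set and of 0.43 and 0.47 in its dim ones, and Mrpl38 changes of 0, 0.42 and 0.97. None of the 156 probe sets passed. With the mean over all probe sets of a gene, the median of the family was -0.06.

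The 3 members with the widest errors were Mrps9, Mrps35 and Mrpl34. Mrps9 read 575, 915 and 803 in the controls and 922, 797 and 651 in the knockouts, a spread wider than any difference between groups (log2 change 0.06 ± 0.21). Mrps35 read 1232, 810 and 1221 and then 1025, 858 and 917, with control mouse 2 the lowest of all 6 (log2 change -0.20 ± 0.19). Mrpl34 read 1617, 1135 and 1481 and then 1475, 1386 and 1211 (log2 change -0.04 ± 0.16). Of these, no change can be read beyond their intervals, the widest of which ran from -0.45 to 0.56.

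The medians of the lists of genes that work with the mitochondrial ribosome lay between -0.06 and 0.05, and differences between lists were not tested. Of 4 ribosomal proteins with other names, none passed, and all lay between -0.02 and 0.02; Dap3, of the small subunit head, had means of 1454 ± 44.1 and 1473 ± 28.9, Ptcd3 of 670 ± 50.2 and 662 ± 51.6, and Gadd45gip1 of 337 ± 41.4 and 342 ± 37.5. Of 29 genes of ribosome assembly and ribosomal RNA processing, none passed, 18 were above 0, and the median was 0.05. Without overlap, 6 (20.7%) were higher and 3 (10.3%) lower, against 12.3% and 9.23% of all genes. Mrm1, a methyltransferase of the mitochondrial ribosomal RNA, read 646, 438 and 467 in the controls and 846, 828 and 796 in the knockouts (log2 change 0.68 ± 0.16, adjusted p = 0.213). Mettl15, a methyltransferase of the small subunit RNA, had means of 238 ± 8.49 and 341 ± 36.9 (0.48 ± 0.11, adjusted p = 0.208). Afg3l2, a subunit of the m-AAA protease that cuts Mrpl32, read 555, 512 and 515 and then 712, 717 and 788 (0.47 ± 0.10, adjusted p = 0.178). These 3, named because they had the smallest p of the 29, were higher in every knockout mouse than in any control. With an intensity trend and robust moderation in limma their adjusted p were 0.00927, 0.0349 and 0.00983. That setting called 3.61% of all genes higher and 0.605% lower. Those adjusted p were the lowest over the alternatives, where each reached 0.431 at most.

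Of 14 translation factors, none passed, 7 were above 0 and 7 below, and the median was 0. Lrpprc, which stabilises mitochondrial messenger RNA, was higher without overlap, with means of 803 ± 34.4 and 968 ± 53.8 (log2 change 0.26 ± 0.10, adjusted p = 0.360). Mtif3, an initiation factor, had means of 38.3 and 52, and Mtrf1l, a release factor, of 527 and 594, both with overlap. Of 21 aminoacyl-tRNA synthetases and related enzymes, none passed, 8 were above 0, and the median was -0.06. Fars2, for phenylalanine, had means of 253 ± 18.9 and 333 ± 10.4 (0.37 ± 0.10, adjusted p = 0.243); Gars, for glycine and shared with the cytosol, had a change of 0.15 and Sars2, for serine, one of -0.26.

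Of 20 genes of mitochondrial DNA maintenance, transcription and RNA processing, none passed, 14 were below 0, and the median was -0.06. Without overlap, 5 (25%) were lower and 2 (10%) higher, against 9.23% and 12.3% of all genes. Elac2, which trims transfer RNA ends, had means of 186 ± 25.3 and 136 ± 16.6 (log2 change -0.41 ± 0.14, adjusted p = 0.328). Clpp, a matrix protease listed with these genes, had a change of -0.26. Polg2, the accessory subunit of the mitochondrial DNA polymerase, had one of 0.38. Of 14 genes listed as regulators of mitochondrial biogenesis, among them broader factors such as Myb, none passed and the median was 0.04. Myb, a transcription factor of proliferating progenitors, read 5467, 5602 and 5716 and then 4329, 4839 and 3455 (-0.42 ± 0.14, adjusted p = 0.326); Pprc1 had a change of 0.20 and Akap1 one of -0.28. No gene symbol with the prefix mt- was found, so transcripts of the mitochondrial genome were not analysed here.

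The closest families differed in where their changes centred. The 50 cytosolic ribosomal proteins had a median of 0 with 24 above 0. Of them, 4 (8%) were higher and 3 (6%) lower without overlap, against 12.3% and 9.23% of all genes. The 64 genes of respiratory complexes I to III and ATP synthase, some of whose partners are made by the mitochondrial ribosome, had a median of 0.06 with 46 above 0, and 18 (28.1%) were higher and 5 (7.81%) lower without overlap. Their extreme was Ndufb9, of complex I, with means of 4677 ± 324 and 7862 ± 271 (log2 change 0.75 ± 0.10, adjusted p = 0.0812); Ndufb2 and Atp5md had changes of 0.26 and 0.27. The cytosolic proteins had a median intensity of 14632, and the 3 named here were much dimmer. Rpl12 had a change of -0.47, at group means of 261 and 184. Rps25 had one of -0.27, at 859 and 708, and Rps4l one of 0.44, at 81.7 and 117. None of these passed, and differences between families were not tested. After quantile normalization the medians were -0.12 for the mitochondrial ribosomal proteins, -0.05 for the cytosolic ones and -0.04 for the respiratory genes, so the order of the first against the others was kept while the sign of the last turned.

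**Figure D4:**
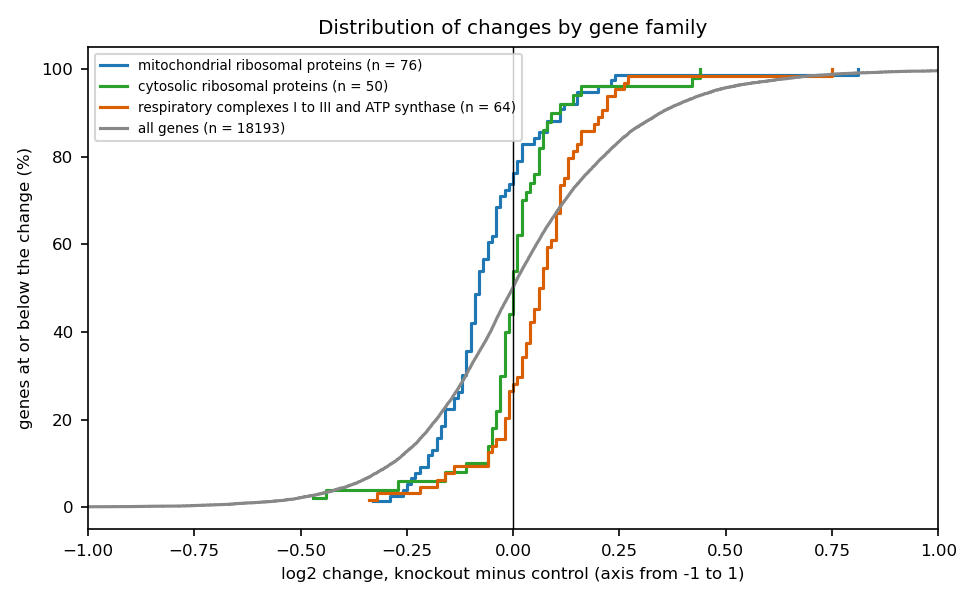
Cumulative share of genes (y axis, percent) at or below a log2 change (x axis, knockout minus control) in 4 gene sets. The curve of the 76 mitochondrial ribosomal proteins crosses the 0 line at about 75%, that of all 18193 genes near 50.2%.

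Changes of members with and without a promoter motif were set side by side. The median log2 change was -0.07 in the 25 genes with CCGGAAG in a window and -0.08 in the others with a window, -0.05 and -0.08 for AAGATGGC, -0.01 and -0.08 for CGCATGCGC, -0.04 and -0.08 for AGATAA, and -0.09 and -0.07 for TGACCA. These differences were not tested.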

How the data were processed

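The authors deposited 45037 linear probe set intensities for each of 6 Affymetrix arrays (3 control, 3 knockout mice). The methods of probe summary, correction and scaling, not given in the sources used here, were left as deposited. Log2(intensity + 16) was fitted in R 4.3.3 by limma 3.58.1 (lmFit and eBayes), with two-sided p-values adjusted by Benjamini and Hochberg's method across the probe sets. Fold changes on this scale understate those of dim probe sets. Array log2 medians differed by at most 0.057, and no further normalization was made in the main fit. That difference is not small beside the family's median change of -0.08. The median change was -0.06 after median centring and -0.12 after quantile normalization. The platform annotation gave 1 symbol for 34945 probe sets, several for 932 and none for 9160; only single symbols named genes. Group means carry the SD of the 3 intensities, and log2 changes the standard error from the fit. The labels number the mice, and p-values measure the spread between 3 mice a group, which limits the precision; an exact permutation test could not go below 0.1. The fit was tested on simulated data. Genes named were those called, up to 6 by p in each direction among groups that did not overlap, the 3 brightest, dimmest and least certain, Mrpl12, Mrps36, the Mrps18 genes, and 3 of each further list by p; others were added as the results called for them. Members, lists and rules were chosen with earlier results of these data known. Promoter sequences are RefSeq's. The alternatives were centring on array medians, quantile normalization, a pseudocount of 1 or 64, only the brighter probe sets, moderation with trend and robustness, a block for the replicate number, omission of each mouse in turn, and the mean over probe sets. Same-numbered mice did not deviate together (r = -0.04 to -0.01 over probe sets), so the numbers pair nothing.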

Additional observations from a re-analysis of the deposited data

How the results depend on the processing

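The count of all probe sets called was 66 in the comparison as reported. It was 38 with a pseudocount of 1, 558 with one of 64, 853 among the brighter probe sets, 1445 with an intensity trend and robust moderation, 14 with the replicate number as a block, which shares only a number between mice, and 27 to 41 on leaving out 1 mouse. The count of mitochondrial ribosomal protein genes called was 0 as reported and after quantile normalization, median centring, a pseudocount of 1, the replicate block and leaving out any 1 mouse. It was 1, Mrps36, which was higher, with a pseudocount of 64, among the brighter probe sets and with trend and robust moderation. The fit to means over probe sets also called Mrps36 (limma, adjusted p = 0.026). Mrps36 has only 1 probe set, so its values there were unchanged, and p was adjusted over 18193 genes in place of 45037 probe sets. The median change of the family stayed below 0 under all 14 alternatives, from -0.12 to -0.05. Members above 0 numbered 19 as reported, 12 after quantile normalization, and 26 without control mouse 2 or as the mean over probe sets. Single signs were followed only for the genes named by the set rule, not for every member. Among those genes the sign turned for 7, none of them called. All but Akap1 (-0.28 as reported) had a change between -0.04 and 0.06. Mrpl38 was 0.02 after quantile normalization and median centring and 0.46 as the mean over probe sets. Mrps9 was -0.07 as the mean and Dap3 -0.05 after quantile normalization. Ptcd3 was 0.0 after median centring and Akap1 0.03 as the mean. On leaving out 1 mouse, Mrpl38 ranged from -0.07 to 0.09, Mrps9 from -0.13 to 0.20, Mrpl34 from -0.19 to 0.06, Gadd45gip1 from -0.07 to 0.10 and Ptcd3 from -0.07 to 0.04. The cause of these turns was not tested.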
